A study of Mus musculus with 15 samples.

Results

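The acyl-CoA thioesterase family is described here in mouse liver through 8 of its genes, which are Acot1, Acot2, Acot3, Acot4, Acot7, Acot8, Acot12 and Acot13. The members were chosen by gene symbol in the annotation of the array, from 19938 genes with a transcript cluster (a group of probes along 1 gene) of a single symbol. The brightest cluster would stand for a gene with several, but each of the 8 members had 1 cluster, so no measured value decided between clusters. All 8 also passed a filter on dim genes, which only an alternative used. The family itself was picked with earlier results of these arrays known, and the counts below are therefore not independent evidence of its direction. On the same array, 5 other Acot genes were measured (Acot5, Acot6, Acot9, Acot10 and Acot11), and they are set beside the members where they differ.

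Liver RNA came from male C57BL/6J mice that carried no transgene and were put on their diets at 8 weeks of age. The 15 GeneChip arrays form 5 groups of 3, namely the basal diet group at 38w, the Ath+HF group (an atherogenic and high-fat diet) at 38w and 68w, and the Ath+HF+BCAA group at 38w and 68w, whose Ath+HF diet was supplemented with 3% branched-chain amino acids. Mice of 38w had eaten their diet for 30 weeks, and those of 68w for 60 weeks. As every basal diet array is of 38w, diet cannot be told apart from age or from a batch of processing where 68w arrays are set against them. No source says whether 2 arrays may share a mouse, and a p-value here therefore rates a difference only against the scatter of the arrays, some of which may be technical.

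Acyl-CoA thioesterases cut the bond between a fatty acid and coenzyme A, releasing the free acid and free coenzyme A, and so work against the acyl-CoA synthetases that make the bond. Type I enzymes (Acot1 to Acot4 among the members) share an alpha/beta hydrolase fold, while type II enzymes (Acot7, Acot8, Acot12 and Acot13) have an unrelated hotdog fold, and both kinds are spread over cytosol, mitochondria and peroxisomes. In rodent liver the type I genes are known for their induction by fasting and by agonists of PPARα, the nuclear receptor that senses fatty acids.

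The 4 type I members lie next to each other on chromosome 12 of the mouse genome (GRCm38.p6, all on the plus strand), in the order Acot2 (chr12:83987861-83993877), Acot1 (chr12:84009502-84017670), Acot4 (chr12:84037254-84044723) and Acot3 (chr12:84052144-84060400). Acot5 (chr12:84069077-84076024) and Acot6 (chr12:84100654-84109783) follow them. The type II members are scattered, with Acot7 on chromosome 4 (152178100 to 152271855), Acot8 on chromosome 2 (164792768 to 164820219), and Acot12 (91741326 to 91786148) and Acot13 (24817955 to 24831489) on chromosome 13. RefSeq (GRCm38.p6) had a promoter entry for 7 of the 8 members, without Acot13. Of the members in the cluster, Acot1, Acot2 and Acot3 have a window that lies wholly before the annotated gene. For these the 250 bases before the start are shown (Acot1 chr12:84009252-84009501, Acot2 chr12:83987611-83987860, Acot3 chr12:84051894-84052143). They are written 5′ to 3′ on the plus strand, and capitals mark the letters CCAAT on either strand (ATTGG is the same motif on the other strand).
Acot1: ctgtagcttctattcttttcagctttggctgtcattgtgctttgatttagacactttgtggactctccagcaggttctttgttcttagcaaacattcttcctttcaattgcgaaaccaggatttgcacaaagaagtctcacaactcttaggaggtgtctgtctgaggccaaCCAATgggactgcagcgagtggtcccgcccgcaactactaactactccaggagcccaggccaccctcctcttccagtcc
Acot2: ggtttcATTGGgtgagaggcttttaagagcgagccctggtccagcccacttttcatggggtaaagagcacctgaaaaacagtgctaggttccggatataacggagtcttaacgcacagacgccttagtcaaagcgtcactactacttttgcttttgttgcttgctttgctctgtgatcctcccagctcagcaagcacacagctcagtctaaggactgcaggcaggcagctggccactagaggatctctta
Acot3: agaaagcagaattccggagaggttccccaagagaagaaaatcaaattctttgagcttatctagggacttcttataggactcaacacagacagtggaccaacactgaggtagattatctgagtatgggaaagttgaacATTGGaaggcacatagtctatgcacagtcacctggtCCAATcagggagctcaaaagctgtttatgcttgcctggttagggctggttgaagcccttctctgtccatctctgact
CCAAT was searched on both strands without regard to overlaps with other motifs. Among the members, it was found in the windows of Acot1, Acot2, Acot3, Acot4 and Acot8 and not in those of Acot7 and Acot12. Of the other Acot genes, Acot5, Acot9 and Acot11 also had it in a window, and Acot10 did not. Of 32851 RefSeq windows of the same length, 33.8% hold it. The hexamer AGGTCA is the half-site of nuclear receptors such as PPARα. It was found on the minus strand of the Acot4 and Acot12 windows, and also in those of Acot5, against 14% of all windows. In Acot4 and Acot12 it was part of an imperfect direct repeat, searched as AGGTCA written again after 1 base. At least 10 of the 12 letters had to match, and 3.24% of all windows hold such a repeat. In Acot4 it reads, on the plus strand and with the half-site on the other strand first, TGACCTTTGGCCG at positions -13 to -1 from the start, with 10 letters matching. In Acot12 it reads TGACCTCTCACCT at positions -110 to -98, with 11 letters matching. Positions count from the start of the promoter entry, and the Acot4 window (chr12:84038129-84038378) lies inside the annotated gene. The Acot12 window (chr13:91741271-91741520) runs past the annotated gene start, and its repeat lies inside the gene. Windows of Acot5, Acot7 and Acot8 and a window of Acot11 also lie wholly or partly inside their annotated genes. A match describes the letters of these windows and is no measurement of binding.

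The values are log2 signals, normalized by RMA by the authors, and the array medians lay between 6.91 and 7.16. The 13 measured hepatocyte markers had a summed linear signal between 136387 and 157375 in every array. Within 68w, this sum was 155699 to 156686 in the arrays labelled Ath+HF and 137680 to 142905 in those labelled Ath+HF+BCAA. Albumin (Alb) lay between 13.91 and 14.16 on the log2 scale. The 22 measured macrophage markers had a summed signal of 13441 to 14082 in the basal diet arrays, 26913 to 33269 in the Ath+HF arrays and 23626 to 33181 in the Ath+HF+BCAA arrays of 38w. At 68w it was 8582 to 9221 in the arrays labelled Ath+HF and 40117 to 50168 in those labelled Ath+HF+BCAA, with 19 of the 22 markers higher and 0 lower in the latter. The study reported less fibrosis with BCAA, by staining, hydroxyproline content and qRT-PCR. From its arrays it also reported that BCAA held down inflammation and fibrosis genes raised by the Ath+HF diet. Metabolism genes, the leptin receptor among them, were reported to fall on that diet and to be rescued by BCAA. Here Lepr, the leptin receptor gene, had a log2 difference from basal diet of -0.83 in Ath+HF at 38w (not called) and 1.02 at 68w. At 68w it was -2.98 in arrays labelled Ath+HF+BCAA against those labelled Ath+HF. The macrophage and Lepr values of 68w run the other way, and so go against the labels of the arrays of 68w. Every comparison that holds a 68w group, those with basal diet and with 38w included, rests on the labels as deposited. An exchange of both labels would turn the sign of each difference between the 68w groups, and would give each 68w result against basal diet or 38w to the other diet. Fewer cells of a type and less RNA per cell cannot be told apart in whole liver.

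Across the 5 groups, the 8 members split by how far their levels moved. The group means of the type I members spanned 4.18 on the log2 scale for Acot1 (18.1-fold), 3.28 for Acot3, 3.14 for Acot4 and 2.48 for Acot2, spans that lie at or above the 99.2nd percentile of all genes. Acot8 spanned 1.19 (91.9th percentile), while Acot13 (0.65), Acot12 (0.52) and Acot7 (0.51) lay between the 49.9th and 66.9th percentiles. For all 8 members the lowest group mean was that of Ath+HF+BCAA at 68w.

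**Figure D1:**
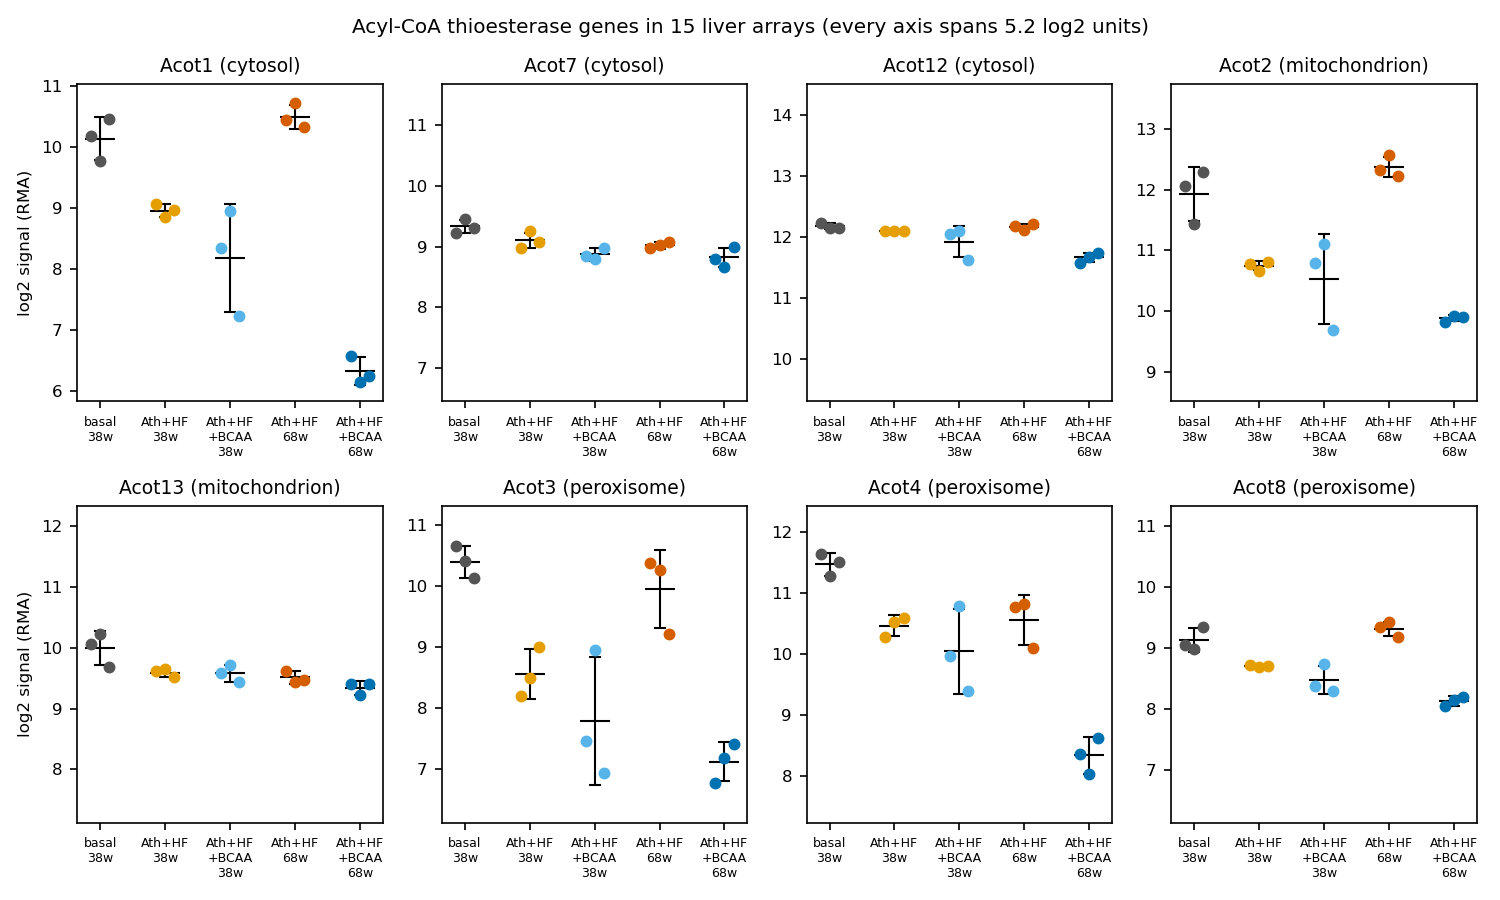
Log2 signal of the 8 members in each array (points), by group on the x axis, with the group mean and SD (bars, n = 3), and axes of equal length so that spans can be compared. The type I genes Acot1 to Acot4 were highest in basal diet or Ath+HF 68w arrays and lowest in the Ath+HF+BCAA 68w arrays, whereas Acot7, Acot12 and Acot13 spanned at most 0.65.

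Among the cytosolic members, Acot1, which hydrolyses long-chain acyl-CoA, moved most. Its log2 signal was 10.19, 9.77 and 10.47 in the basal diet arrays, 9.07, 8.85 and 8.97 in the Ath+HF arrays of 38w, and 8.35, 8.96 and 7.23 in the Ath+HF+BCAA arrays of 38w. At 68w it was 10.45, 10.72 and 10.33 in the Ath+HF arrays and 6.58, 6.14 and 6.25 in the Ath+HF+BCAA arrays. The Ath+HF 68w arrays overlapped the basal diet arrays, both 38w diet groups lay below them, and the Ath+HF+BCAA 68w arrays lay below all others. In the order of means, neither the lower pair of neighbours at 38w (Ath+HF+BCAA and Ath+HF) nor the upper pair (basal diet and Ath+HF 68w) differed past the threshold.

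The other cytosolic members spanned a smaller range. Acot12, which hydrolyses acetyl-CoA, lay between 11.57 and 11.73 in the Ath+HF+BCAA 68w arrays and between 11.62 and 12.23 in all others. Acot7, best known for its abundance in brain, lay between 9.23 and 9.45 in the basal diet arrays and between 8.67 and 9.0 in the Ath+HF+BCAA 68w arrays. The lower values of both genes came near or overlapped those of Ath+HF+BCAA at 38w, where Acot12 reached 11.62 in 1 array and Acot7 lay between 8.79 and 8.98.

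Of the mitochondrial members, Acot2 is the matrix enzyme for long-chain acyl-CoA and is nearly identical in sequence to Acot1. Its log2 signal was 12.06, 11.44 and 12.29 in the basal diet arrays, 10.77, 10.67 and 10.81 in the Ath+HF and 10.79, 11.10 and 9.69 in the Ath+HF+BCAA arrays of 38w, 12.32, 12.56 and 12.23 in the Ath+HF and 9.83, 9.93 and 9.91 in the Ath+HF+BCAA arrays of 68w. The order of the group means was that of Acot1, but the Ath+HF+BCAA arrays of 68w overlapped those of 38w. Because probes of near-identical genes can read both transcripts, the separate values of Acot1 and Acot2 are uncertain. Within an array, Acot1 minus Acot2 was -1.79 ± 0.10 (SD, n = 3) on basal diet and -3.57 ± 0.28 (SD, n = 3) in the Ath+HF+BCAA 68w arrays, so the 2 clusters changed unequally. Acot13, which is associated with mitochondria and partners a phosphatidylcholine transfer protein, lay between 9.68 and 10.23 in the basal diet arrays and between 9.22 and 9.72 in all others.

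The peroxisomal members Acot3, an enzyme for long-chain acyl-CoA, and Acot4, which hydrolyses succinyl-CoA, were both highest on basal diet. Acot3 had a log2 signal of 10.66, 10.41 and 10.14 in the basal diet arrays, 8.19, 8.49 and 9.0 in the Ath+HF and 7.46, 8.95 and 6.93 in the Ath+HF+BCAA arrays of 38w, 10.38, 10.26 and 9.21 in the Ath+HF and 6.77, 7.18 and 7.41 in the Ath+HF+BCAA arrays of 68w. Of the Ath+HF 68w arrays, 2 overlapped the basal diet arrays and replicate 3 lay below them, and the Ath+HF+BCAA arrays of both ages overlapped.
Acot4 had a log2 signal of 11.64, 11.28 and 11.52 in the basal diet arrays, 10.28, 10.53 and 10.60 in the Ath+HF and 9.97, 10.79 and 9.39 in the Ath+HF+BCAA arrays of 38w, 10.78, 10.83 and 10.10 in the Ath+HF and 8.37, 8.03 and 8.63 in the Ath+HF+BCAA arrays of 68w. Unlike those of Acot1 and Acot2, its Ath+HF 68w arrays all stayed below the basal diet arrays and overlapped the Ath+HF arrays of 38w. Acot8, a peroxisomal enzyme of broad substrate range that includes bile acid-CoA, had a log2 signal of 9.05, 8.98 and 9.35 in the basal diet arrays, 8.72, 8.69 and 8.70 in the Ath+HF and 8.37, 8.73 and 8.30 in the Ath+HF+BCAA arrays of 38w, 9.35, 9.42 and 9.18 in the Ath+HF and 8.04, 8.15 and 8.19 in the Ath+HF+BCAA arrays of 68w. Its Ath+HF+BCAA 68w arrays lay below all others, and its Ath+HF 68w arrays overlapped the basal diet arrays.

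The Ath+HF+BCAA arrays of 38w differed from each other along the whole family. Replicate 3 was the lowest of its group for 7 of the 8 members and replicate 2 the highest for 7. The spread was not confined to the family. When arrays were weighted by how closely all their genes followed their group, replicate 3 had the lowest weight of the 15 arrays (0.41). The summed hepatocyte markers ran from 136387 to 157375 within this group. Among the members, the SD in this group was 1.05 for Acot3, 0.88 for Acot1, 0.74 for Acot2 and 0.70 for Acot4, against 0.41, 0.11, 0.07 and 0.17 in the Ath+HF arrays of 38w.

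Differences were tested by limma on all 15 arrays together, p-values were adjusted over the 19938 genes by the Benjamini-Hochberg method, and a gene is called where the adjusted value is under 0.05. Having 3 arrays a group limits how precisely any difference is known. The first question was what the Ath+HF diet did at 38w. The members called lower were type I genes, whose enzymes belong to the cytosol, mitochondrion and peroxisome. The log2 difference was -1.18 for Acot1 (standard error 0.30, adjusted p = 0.0391), -1.18 for Acot2 (standard error 0.27, adjusted p = 0.0208) and -1.84 for Acot3 (standard error 0.41, adjusted p = 0.0173). Thus 3 of 8 members were called lower and 0 higher, where 1.18% of all genes were called lower and 3.05% higher. Acot4 (log2 difference -1.01, adjusted p = 0.0524) and Acot8 (-0.43, adjusted p = 0.0635) missed the threshold. The median log2 difference of the members was -0.72 and that of all genes 0.00. The summed macrophage markers given above were also higher than on basal diet, and their part in the differences was not tested. The calls depended on single arrays and on the genes tested, since none of the 8 was called without basal diet replicate 1, without Ath+HF 38w replicate 1 or 2, or over all 35556 transcript clusters, and 1 was called without Ath+HF 38w replicate 3 or with the 38w arrays alone. Setting the array medians equal, or leaving out dim genes, gave 5.

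With BCAA in the diet at 38w, 6 of 8 members were lower than on basal diet and 0 higher (background 1.82% lower and 3.67% higher). The log2 difference was -2.62 for Acot3 (6.15-fold, standard error 0.41, adjusted p = 0.00158), -1.96 for Acot1 (3.90-fold, standard error 0.30, adjusted p = 0.00152), -1.43 for Acot4 and -1.40 for Acot2, and for the type II genes -0.66 (Acot8) and -0.46 (Acot7). Acot13 (-0.41, adjusted p = 0.0771) and Acot12 (-0.25, adjusted p = 0.215) were not called. The members' median was -1.03 against -0.01 for all genes. In the same comparison 17 of 22 macrophage markers (median 1.11) and 6 of 11 stellate cell markers were higher, and their part was not tested. A fit of these 2 groups alone, in which the spread of the Ath+HF+BCAA arrays stands for itself, called only Acot1 and Acot3.

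In the Ath+HF group at 68w, 3 of the 4 type I members and Acot8 did not differ from basal diet past the threshold. Acot1 differed by 0.36 (95% interval -0.29 to 1.0), Acot2 by 0.44 (-0.14 to 1.01), Acot3 by -0.46 (-1.32 to 0.41) and Acot8 by 0.19 (-0.07 to 0.45). Those called lower were Acot4 (-0.91, standard error 0.28, adjusted p = 0.0173), Acot13 (-0.48, adjusted p = 0.00814) and Acot7 (-0.31, adjusted p = 0.0338). The 3 members called lower and 0 higher stand against 19.1% and 19% of all genes. Of the 22 macrophage markers 9 were lower and 3 higher, or 15 and 0 with array medians set equal, and their part was not tested. The count of members was 1 in a one-way analysis of variance with Bonferroni adjustment, the test of the methods, and 1 without Ath+HF 68w replicate 3, where Acot4 was -0.68 (adjusted p = 0.0907). Acot4 also lost its call without basal diet replicate 1 (-0.83, adjusted p = 0.058), and Acot7 lost its call without any 1 of basal diet replicates 2 and 3 and the 3 Ath+HF 68w arrays.

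Compared with basal diet, all 8 members were lower in the Ath+HF+BCAA arrays of 68w (background 21.8% lower and 22.9% higher). In order of size, the type I log2 differences were -3.82 for Acot1 (14.2-fold, standard error 0.30, adjusted p = 1.3e-07), -3.28 for Acot3 (9.74-fold), -3.14 for Acot4 (8.81-fold) and -2.04 for Acot2 (4.12-fold). The type II differences were smaller, at -1.0 for Acot8, -0.65 for Acot13, -0.52 for Acot12 and -0.51 for Acot7. If the 68w labels were exchanged, these differences would be those of the Ath+HF diet. The medians were -3.21 for the 4 type I and -0.58 for the 4 type II members, and 0.01 for all genes. All 8 remained called under every alternative, leaving out each array included. Of the macrophage markers 19 of 22 were higher in this comparison and of the hepatocyte markers 2 of 13 were higher and 2 lower. With array medians set equal, 0 of the hepatocyte markers were higher and 6 lower. The part of these markers in the differences was not tested. The 4 comparisons with basal diet share their 3 basal diet arrays.

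**Figure D2:**
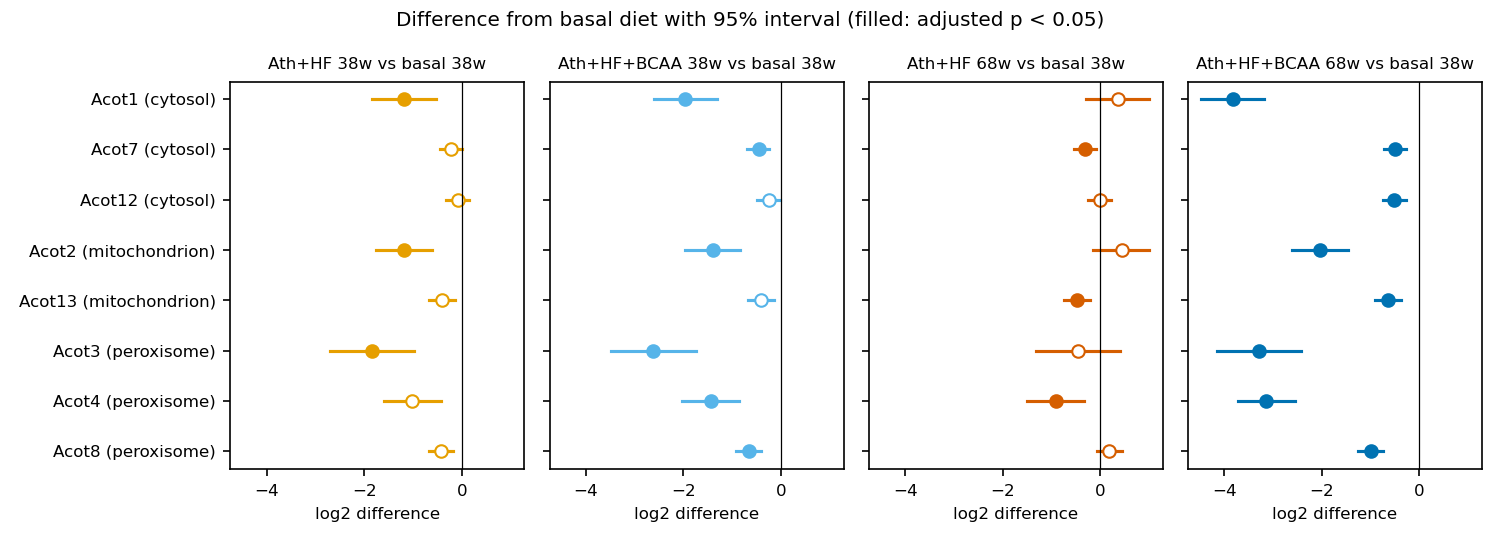
Log2 difference of each diet group from the basal diet group of 38w (x axis) for the 8 members, with 95% intervals, filled where the adjusted p was under 0.05. Acot1 was -1.18 and -1.96 at 38w, 0.36 in Ath+HF at 68w and -3.82 in Ath+HF+BCAA at 68w, while Acot12 stayed between -0.52 and -0.01.

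Between arrays of 38w and 68w, age, weeks on diet and any batch of processing differ together and cannot be told apart. The members called were higher at 68w in the arrays labelled Ath+HF and lower at 68w in those labelled Ath+HF+BCAA. These directions rest on the 68w labels, since with both exchanged the mean of Acot2, for one, would go from 10.75 to 9.89 on the Ath+HF diet and from 10.53 to 12.37 with BCAA. In the Ath+HF group, the 68w arrays were higher than those of 38w by 1.62 for Acot2 (3.07-fold, standard error 0.27, adjusted p = 0.000368), 1.54 for Acot1 (2.90-fold, standard error 0.30, adjusted p = 0.00132), 1.39 for Acot3 (adjusted p = 0.0154) and 0.61 for Acot8 (adjusted p = 0.00136). These were 4 of 8 members higher and 0 lower, against 17.6% and 20% of all genes, and Acot4 differed by 0.09 (95% interval -0.49 to 0.68). Acot3 lost its call without Ath+HF 38w replicate 1 (1.2, adjusted p = 0.0643) and without Ath+HF 68w replicate 1 (1.17) or 2 (1.23). In the same comparison 20 of 22 macrophage markers were lower, and their part was not tested.

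In the Ath+HF+BCAA group, levels were lower at 68w than at 38w for Acot1 (-1.86, 3.63-fold, standard error 0.30, adjusted p = 0.000219), Acot4 (-1.70, 3.26-fold, adjusted p = 0.000199) and Acot8 (-0.34, adjusted p = 0.0362). These 3 of 8 lower and 0 higher stand against 18.3% and 20.5% of all genes. Without Ath+HF+BCAA 38w replicate 3, the array with the lowest family values, 6 members were lower, with Acot2 at -1.06 (adjusted p = 0.000628) and Acot3 at -1.09 (adjusted p = 0.0467). Acot8 lost its call without Ath+HF+BCAA 38w replicate 2 (-0.21) and without any 1 of the 68w arrays of this diet. In this comparison 13 of 22 macrophage, 6 of 11 stellate cell and 4 of 5 cholangiocyte markers were higher, and their part was not tested.

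The main question of the study was what BCAA did within the Ath+HF diet. At 38w no member and no gene was called by limma, so that the background was 0% in either direction. At an unadjusted p under 0.05 there were 1528 of the 19938 genes and 2 of the members, Acot1 and Acot7, and the methods' test called 0 members. The log2 difference was -0.78 for Acot1 (95% interval -1.43 to -0.14, adjusted p = 0.575), -0.78 for Acot3 (-1.65 to 0.09), -0.43 for Acot4 (-1.01 to 0.16) and -0.22 for Acot2 (-0.80 to 0.35). A decrease of Acot1 or Acot3 by more than 2-fold thus lies within the intervals, and the arrays do not show that the diets acted alike. The median was -0.23 against -0.01 for all genes.

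At 68w the arrays labelled Ath+HF+BCAA had 6 of 8 members lower than those labelled Ath+HF and 0 higher (background 16.4% lower and 19.8% higher). The type I members were all lower, namely Acot1 (-4.18, 18.1-fold, standard error 0.30, adjusted p = 5.73e-08), Acot3 (-2.83, 7.11-fold, adjusted p = 5.46e-05), Acot2 (-2.48, 5.57-fold, adjusted p = 3.15e-06) and Acot4 (-2.22, 4.67-fold, adjusted p = 1.22e-05). Of the type II members, Acot8 (-1.19, 2.28-fold, adjusted p = 1.78e-06) and Acot12 (-0.51, adjusted p = 0.00204) were lower. Acot7 (-0.20, 95% interval -0.43 to 0.02) and Acot13 (-0.16, 95% interval -0.43 to 0.11) were not called. By compartment, called members were 2 of 3 in the cytosol, 1 of 2 in mitochondria and 3 of 3 in peroxisomes. The members' median was -1.71 against -0.09 for all genes. These 6 calls held in every alternative. Beside them, macrophage markers had a median of 2.15 and stellate cell markers of 1.12 in the same comparison. Of the 13 hepatocyte markers, 4 were lower and 0 higher, with a median of -0.06. The part of these markers was not tested.

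The difference between the BCAA effects at the 2 ages was tested as an interaction, whose sizes and signs rest on the labels of the 68w arrays. It was called for 5 of 8 members, all toward lower values at 68w (background 7.67% lower and 12.9% higher), with log2 values of -3.40 for Acot1 (adjusted p = 4.32e-05), -2.26 for Acot2 (adjusted p = 0.000523), -2.05 for Acot3 (adjusted p = 0.0193), -1.80 for Acot4 (adjusted p = 0.00371) and -0.95 for Acot8 (adjusted p = 0.000902). Acot3 lost its call without Ath+HF 38w replicate 1 (adjusted p = 0.051), Ath+HF 68w replicate 1 (0.0504) or 2 (0.0501), or Ath+HF+BCAA 68w replicate 1 (0.0523), and Acot12 gained one without Ath+HF+BCAA 38w replicate 3 (-0.49, adjusted p = 0.00936).

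**Figure D3:**
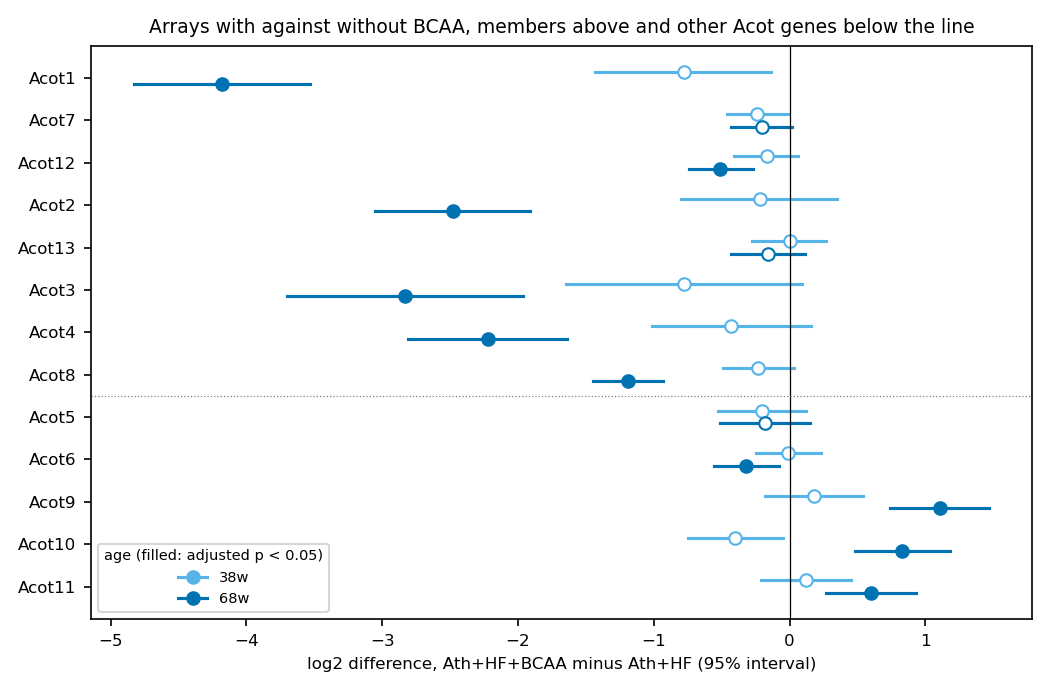
Log2 difference of Ath+HF+BCAA minus Ath+HF arrays (x axis) at 38w (light) and 68w (dark) with 95% intervals, filled where the adjusted p was under 0.05, for the 8 members (above the dotted line) and the 5 other Acot genes (below it). At 38w no gene was called, whereas at 68w Acot1 reached -4.18 and Acot9 reached 1.11.

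The type I genes did not move in fixed proportion, whether of the same compartment or not. Within an array, Acot1 minus Acot4 was -1.34 ± 0.25 on basal diet, -1.51 ± 0.26 in Ath+HF and -1.87 ± 0.27 in Ath+HF+BCAA at 38w, -0.07 ± 0.29 in Ath+HF and -2.02 ± 0.31 in Ath+HF+BCAA at 68w (SD, n = 3). In the Ath+HF 68w arrays this difference, between -0.33 and 0.23, lay above that of every other array. Acot1 minus Acot3 did not set these arrays apart, with 0.06 to 1.12 in Ath+HF at 68w and up to 0.87 and 0.89 in the Ath+HF and Ath+HF+BCAA arrays of 38w. Acot3 minus Acot4, both peroxisomal, had a mean of -1.08 on basal diet, -1.91 in Ath+HF and -2.26 in Ath+HF+BCAA at 38w, and -0.62 in Ath+HF and -1.22 in Ath+HF+BCAA at 68w. Such a difference has no unit of amount, since signals of different probes are not on a common scale, and shows only that the genes changed unequally.

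Of the 5 other Acot genes, 3 were higher and 1 was lower at 68w with BCAA, where 19.8% of all genes were higher and 16.4% lower. At 68w, Acot9, a mitochondrial enzyme, was 1.11 higher in Ath+HF+BCAA than in Ath+HF arrays (2.15-fold, standard error 0.17, adjusted p = 0.000105), with 8.54, 8.53 and 8.61 against 7.49, 7.07 and 7.80. Acot10, the intronless relative of Acot9, was 0.83 higher (adjusted p = 0.00103), with 6.97, 6.93 and 6.71 against 5.93, 6.20 and 5.99, and whether probes read both relatives was not tested. Acot11, a thermogenesis-associated enzyme of brown fat, was 0.60 higher (adjusted p = 0.00674), a call that the methods' test did not make. Acot6, the last gene of the chromosome 12 cluster, was lower (-0.32, adjusted p = 0.0383), a call lost in 10 of 16 alternatives (adjusted p up to 0.147), among them those without any 1 of the 68w arrays of either diet. Acot5, which lies between Acot3 and Acot6, differed by -0.18 (95% interval -0.51 to 0.15) at a log2 signal of 4.70 to 5.91, among the dim genes of the array. The interaction was 0.93 for Acot9 (adjusted p = 0.0122) and 1.23 for Acot10 (adjusted p = 0.00141). Of 17 measured other thioesterases, the Acot genes included, 7 were higher and 5 lower at 68w with BCAA (all genes 19.8% and 16.4%), and Them4, a thioesterase-superfamily gene, was lower there (-1.21, standard error 0.16, adjusted p = 3.06e-05).

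The pathway around the family was described by lists chosen for their textbook roles. Of 29 measured PPARα targets, none of them a family member, 29 were lower and 0 higher in Ath+HF+BCAA than in Ath+HF arrays of 68w, with a median of -1.50 (all genes -0.09, of which 16.4% were lower and 19.8% higher). Examples were Fabp1, the liver fatty acid binding protein (-1.36, adjusted p = 2.5e-08), Decr1, the mitochondrial dienoyl-CoA reductase (-1.87, adjusted p = 5.98e-08), and Acadvl, the very long-chain acyl-CoA dehydrogenase (-1.28, adjusted p = 1.05e-07). Against basal diet, 3 of 29 were lower in Ath+HF at 38w (all genes 1.18%), 9 in Ath+HF+BCAA at 38w (1.82%), 2 in Ath+HF at 68w, with 3 higher (19.1% lower and 19% higher), and 29 in Ath+HF+BCAA at 68w (21.8%). The 2 lower targets thus make a smaller share than that of all genes. Both Ath+HF counts depended on scaling, since 7 were lower at 38w, and 8 lower and 0 higher at 68w, with array medians set equal. Ppara itself, the receptor gene, had log2 signals of 11.76, 11.84 and 11.54 in Ath+HF and 11.02, 11.12 and 11.36 in Ath+HF+BCAA arrays of 68w and was lower in the latter (-0.55, standard error 0.15, adjusted p = 0.0086).

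**Figure D4:**
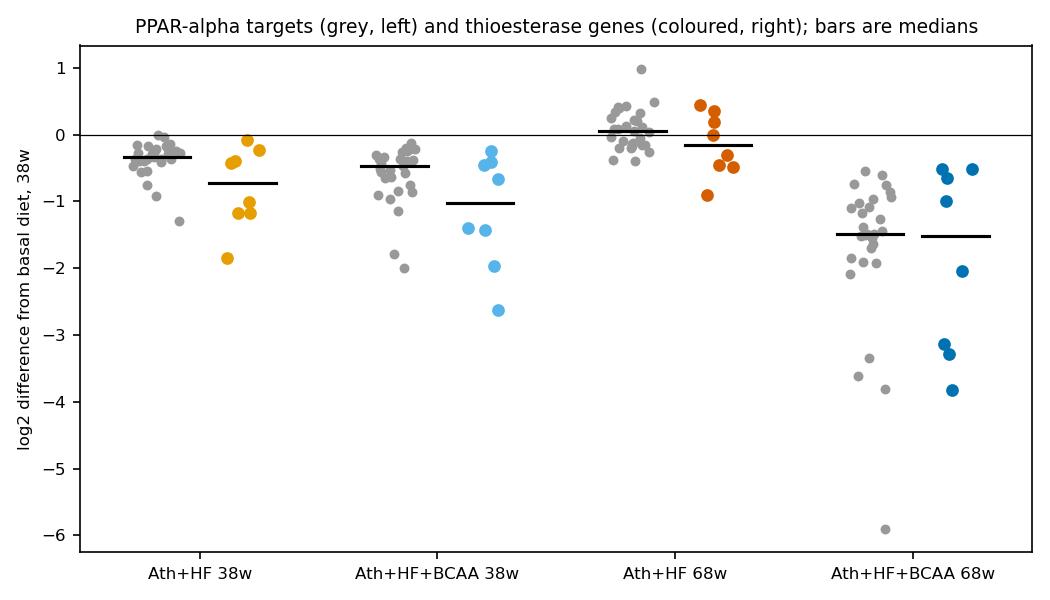
Log2 difference from the basal diet group (y axis) of the 29 measured PPARα targets (grey) and the 8 thioesterase members (coloured) in the 4 diet groups, with medians as bars. In Ath+HF at 68w the medians were 0.06 and -0.16, with members on both sides of 0 and 3 of the 8 called lower, and both sets were lowest in Ath+HF+BCAA at 68w, with medians of -1.48 and -1.52.

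For the lists that follow, 16.4% of all genes were lower and 19.8% higher in the same comparison of the 68w groups. Peroxisomal lipid genes, among them the transporter and import genes that serve the compartment of Acot3, Acot4 and Acot8, were lower in 18 and higher in 3 of 28 at 68w with BCAA, led by Hacl1 (-2.79, adjusted p = 1e-08), an enzyme of fatty acid alpha-oxidation, Scp2 (-1.42) and Abcd3 (-1.33), the membrane transporter that brings acyl-CoA into peroxisomes. The acyl-CoA synthetases, which run the opposite reaction, had 6 lower and 4 higher of 17, the share of higher genes being near that of all genes. Those lower were led by Acss3 (-2.76, adjusted p = 9.22e-08), Acsf2 (-1.08) and Acsl5 (-0.99). Those higher included Acsl4 (1.19, adjusted p = 1.48e-05) and Acss1 (0.92). Acsl1 and Acsl3 were not among the measured genes. Genes of coenzyme A supply were lower in 9 and higher in 0 of 15, led by the mitochondrial coenzyme A carrier Slc25a42 (-1.55), the pantothenate kinase Pank1 (-1.45) and the coenzyme A synthase Coasy (-0.80). Of 15 regulators 6 were lower and 2, a smaller share than that of all genes, higher, with Nr1h4, the bile acid receptor, at -0.88, Rxra, the partner of PPARα, at -0.44 and Pparg at 0.68.

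The genes whose 5 group means ran most like those of a member were named by the root mean square difference of the centred means. For Acot1 they were Cyp17a1 (0.23), Pdk4 (0.28) and Gm15441 (0.32), and for Acot3 they were Acss3 (0.28), Pdk4 (0.29) and G0s2 (0.35). Acot2 was nearest to Gm15401 (0.18), Lepr (0.21) and Aqp4 (0.24), and Acot4 to Slc17a8 (0.22), Ces1f (0.23) and Rab30 (0.24). Acot8, whose span is smaller, was nearest to Slc25a34 (0.06), Amigo2 (0.07) and Trp53inp2 (0.07). The nearest other member ranked between 6 (for Acot3) and 519 (for Acot8) among all genes by this measure, over 5 group means and with no test.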

How the data were processed

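Liver RNA was hybridized to 15 arrays, 3 in each group. The authors deposited log2 signals computed by RMA in Affymetrix Expression Console, per the labels (version not stated there). RMA corrects background, sets the distributions of probe signals equal between arrays and summarizes probes, which compresses changes of dim genes. The deposited cluster signals still had array medians from 6.91 to 7.16. Columns were grouped by the labels. Of 35556 transcript clusters, 21789 carry 1 symbol, 1621 several and 12146 none. Each of 19938 genes was represented by its cluster of highest mean. limma 3.58.1 (R 4.3.3) fitted lmFit and eBayes with 1 coefficient per group, with the Benjamini-Hochberg method over all genes. The fit was tested on simulated data. Members and lists were chosen with earlier results of these data known. Named are all members, other Acot genes, other thioesterases called with a log2 difference over 1, the 3 called genes of smallest p of a list in the 68w comparison, Ppara, and the 3 genes nearest to each member whose group means span over 1. Outside this rule, Acsl4 and Acss1 are named as synthetases that were higher. Alternatives were other cluster rules, filters, scalings, variance models, weights, subsets of arrays, the study's one-way analysis of variance, and each array left out. No 2 arrays held identical values.

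Promoter windows of RefSeq (GRCm38.p6) were limited to the 250 bases before the start, and protein sequences were not used here.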

Additional observations from a re-analysis of the deposited data

Results flagged for a closer look

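The effect of BCAA differed between 38w and 68w, by the interaction term of the limma fit, for 5 members and 2 other Acot genes. The log2 value at 68w minus that at 38w was -3.40 for Acot1, -2.26 for Acot2, -2.05 for Acot3, -1.80 for Acot4 and -0.95 for Acot8, and 0.93 for Acot9 and 1.23 for Acot10. Both the sizes and the signs of these values rest on the labels of the 68w arrays. Macrophage markers moved in the same contrast, with 19 of 22 called and a median of 2.17, and their part was not tested.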

How the results depend on the processing

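Of 1216 values of members under alternatives, 1137 kept their side of the threshold, and 58 lost and 21 gained a call. The sign of a called value changed in 0. Some uncalled values did change sign, such as that of Acot2 for BCAA at 38w, which was -0.22 and reached 0.19. In the comparison of Ath+HF with basal diet at 38w, where 3 members were called, the count was 0 over all transcript clusters, 5 without dim genes, 5 with array medians set equal, 1 with the 38w arrays alone, and 0 to 3 with each array left out. For Ath+HF+BCAA at 38w against basal diet, the 6 calls became 2 with the groups compared alone and 5 to 7 with each array left out. For Ath+HF at 68w against basal diet, the 3 calls became 1 by the study's test and 1 to 2 with each array left out. For Ath+HF+BCAA at 68w against 38w, the 3 calls became 6 with array medians set equal, 5 with array weights and 2 to 6 with each array left out. The cause of these changes was not tested. With each array left out the count stayed at 8 for Ath+HF+BCAA 68w against basal diet, 6 for BCAA at 68w and 0 for BCAA at 38w, and was 3 to 4 for Ath+HF at 68w against 38w and 4 to 6 for the interaction. With equal array medians, the all-gene median went from 0.05 to -0.14 and from 0.01 to -0.18 for the 68w groups against basal diet, which reversed no called member.

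Replicate numbers did not pair the arrays, since correlations of deviations of same-numbered arrays ran from -0.16 to 0.18, and 5 of 15 arrays correlated best with their own number. With the replicate block the 3 calls of Ath+HF against basal diet at 38w became 2 (Acot1, adjusted p = 0.0506), and the counts were 6, 3, 8, 4, 3, 0, 6 and 5 for the other comparisons in the order of the report, as without it.

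The number of arrays, the shared 38w basal diet group and the near-identity of Acot1 and Acot2 limit these values. Signal near background limits Acot5.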
